A study of Homo sapiens with 18 samples.

Results

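The comparison set the libraries labelled thrombin 24 h against the libraries labelled control 4 h in LX-2 cells, a widely used human line derived from hepatic stellate cells. It used 6 of the 18 bulk RNA-seq libraries of the study, 3 in each group. The pair was selected on measured values, the high levels of contractile genes in both among the 6 groups, so the contractile genes are described here without a test, and the account is of what else separated the groups. The thrombin 24 h group had been given the clotting protease thrombin at 1 U/mL for 24 h, and the control 4 h group had been kept in serum-free medium for 4 h. The sample labels give both groups the same earlier steps: plating at 180000 cells per well, 48 h of culture and 1 h without serum. Treatment and time therefore changed together between these groups, and their effects cannot be told apart in the comparison. The other groups were thrombin 4 h, thrombin 48 h, control 24 h and control 48 h.

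Of 15353 genes tested, 11 (0.0716%) separated the libraries with the label thrombin 4 h from those with the label control 24 h (edgeR quasi-likelihood test, adjusted p under 0.05), and 1813 (11.8%) separated thrombin 4 h from control 4 h. Whether columns were exchanged between groups, such as thrombin 4 h and control 4 h, was not tested. The names below are those of the labels, and each direction rests on them. Among the control 4 h libraries, replicate 12 stood apart, with a score of -6.66 on the first principal component (24.1% of the variance) while -20.1 and -23.7 were the scores of replicates 13 and 14. The thrombin 24 h libraries scored -24.5, -22.1 and -30.2. On the second component (13.4% of the variance) replicate 12 was apart in both groups. Replicates 12, 13 and 14 scored -14.1, 9.07 and 6.33 there in thrombin 24 h, and 21.1, 10.5 and 10.2 in control 4 h. Library totals were 15472064, 15579958 and 18766685 counts for thrombin 24 h, and 16463882, 23270601 and 14742061 counts for control 4 h. LX-2 is a single line, and nothing in the labels says that the replicates, numbered 12, 13 and 14, came from separate cultures, so p-values here reflect library-to-library spread that could be technical.

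Hepatic stellate cells lie beside the sinusoids of the liver. After injury they turn into contractile, matrix-producing myofibroblasts, and they carry protease-activated receptors that thrombin cleaves. Those receptors signal through G proteins to calcium, to the small GTPase RhoA and to NF-kappa-B. RhoA drives actin assembly, which releases the coactivator MRTF to act with the transcription factor SRF on contractile genes, and also frees the coactivators YAP and TAZ to enter the nucleus. Sterol synthesis is set by another switch, in which SREBP factors are cleaved when membranes are low in cholesterol and held back by INSIG proteins when it is plentiful.

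The contractile genes were the measure by which the groups were chosen. TAGLN, the transgelin gene of an actin-binding protein, lies on chromosome 11 from 117199294 to 117207465 of GRCh38. It measured 144, 139 and 149 CPM (counts scaled to library size with TMM factors) in the thrombin 24 h libraries and 79.4, 68.7 and 70.4 CPM in the control 4 h libraries. Its means in the other groups were 36.1 CPM in thrombin 4 h, 64.6 in thrombin 48 h, 25.1 in control 24 h and 78.1 in control 48 h. The gene was thus highest in thrombin 24 h, and control 48 h and control 4 h were next and close to each other. Smooth muscle actin, ACTA2, measured 18.0, 15.7 and 19.1 CPM in thrombin 24 h and 10.8, 10.9 and 11.4 CPM in control 4 h, with no overlap. The libraries are of bulk RNA, in which more cells of a kind and more RNA per cell cannot be told apart. The calponin gene CNN1 had 13.8, 15.0 and 15.6 CPM in thrombin 24 h and 10.5, 9.88 and 11.7 CPM in control 4 h. CALD1, which encodes the actin regulator caldesmon, had 790.2, 676 and 658 CPM in thrombin 24 h and 301, 406 and 391 CPM in control 4 h. The myosin light chain gene MYL9 had 726, 817 and 706 CPM in thrombin 24 h and 641, 570.4 and 558 CPM in control 4 h. The tropomyosin gene TPM1 had 780.5, 732 and 712 CPM in thrombin 24 h and 619, 607 and 574 CPM in control 4 h.

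Of 37 contractile genes and SRF targets, 34 had the higher mean in thrombin 24 h, with a median log2 difference of 0.381 and a range of -0.135 to 1.11. Thrombin 24 h had the highest mean of the 6 groups for 31 of the genes, and control 4 h the second highest for 19. With TAGLN and CALD1, the largest differences were in LMOD1, MYOCD and PDLIM5. LMOD1, the gene of the actin nucleator leiomodin, measured 9.55, 8.02 and 4.46 CPM in thrombin 24 h and 4.62, 2.38 and 3.27 CPM in control 4 h. MYOCD, which encodes the SRF coactivator myocardin, measured 13.5, 8.02 and 6.04 CPM in thrombin 24 h and 4.68, 4.46 and 5.01 CPM in control 4 h. PDLIM5, a PDZ and LIM domain protein gene of the actin cytoskeleton, had 342, 317 and 294 CPM in thrombin 24 h and 124, 221 and 196 CPM in control 4 h. The 3 values of each group did not overlap for 23 of the 37 (over all genes 9.89% did not overlap with thrombin 24 h higher and 8.68% with it lower), and for 27 the groups differed by less than 0.5 on the log2 scale. The groups thus shared a high contractile level only in part: relative to each gene's mean over all 18 libraries, the median of the 37 genes was 0.387, 0.501 and 0.40 in the thrombin 24 h libraries, and -0.00948, 0.145 and 0.0907 in the control 4 h libraries. In the RefSeq promoters (GRCh38.p14, 250 bases before to 50 after the start) the CArG box, the sequence that SRF binds, was found on either strand in 8 of the 31 contractile genes with a promoter in the table (25.8%) and in 1.09% of the 11609 tested genes with one. The list was made of contractile genes and SRF targets. A higher share of CArG boxes can follow from that choice and is not a result of these libraries.

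**Figure D1:**
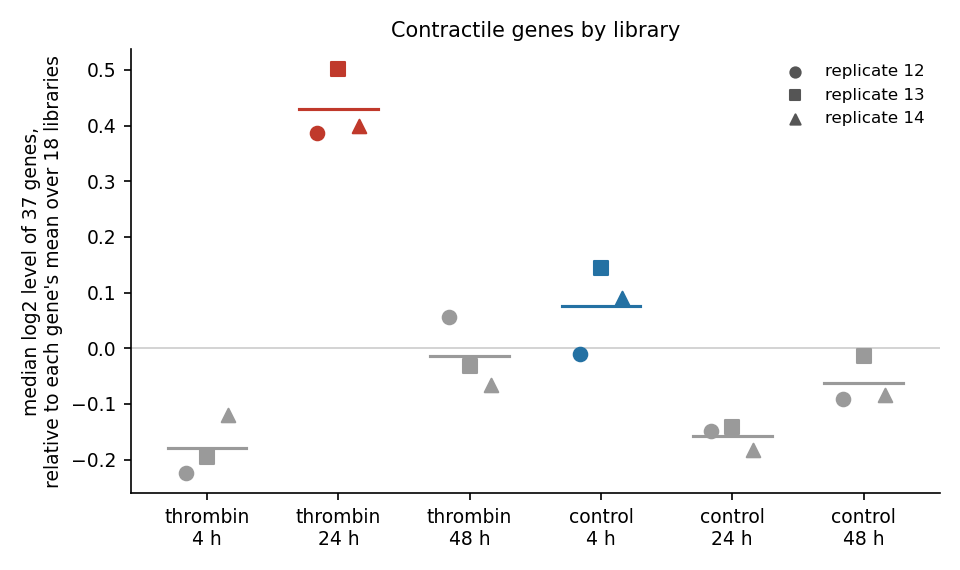
Median log2 level of 37 contractile genes in each of the 18 libraries, relative to each gene's mean over all libraries (vertical axis), by group (horizontal axis). Points are libraries, with the shape giving the replicate number, and bars are group means; the 3 thrombin 24 h libraries (0.387 to 0.501) lie above the 3 control 4 h libraries (-0.00948 to 0.145).

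Across all genes, 513 of 15353 (3.34%) differed between thrombin 24 h and control 4 h (edgeR adjusted p under 0.05, called from here on). Of these, 364 (2.37% of those tested) were higher in thrombin 24 h and 149 (0.970%) lower, and the contractile genes are included in these totals. Only 40 genes (0.261%) were called higher by at least 2-fold and 17 (0.111%) lower by at least 2-fold, and the median size of a called change was 0.533 on the log2 scale. The median log2 fold change of all genes was -0.00139. The 3 thrombin 24 h values lay wholly above the 3 control 4 h values for 9.89% of all genes and wholly below for 8.68%. DESeq2 called 725 of the 13567 genes to which it gave an adjusted p (5.34%). As a scale for these counts, the same fit called 2700 genes (17.6%; 9.05% higher and 8.54% lower) between thrombin and control at 24 h and 2340 (15.2%; 8.10% higher and 7.15% lower) between control 24 h and control 4 h; these comparisons share libraries with the present one. The counts depended on single libraries: without thrombin 24 h replicate 13, 230 genes were called higher and 94 lower, and without thrombin 24 h replicate 12, 94 were called lower. A fit of the 6 libraries alone called 227 higher and 74 lower.

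**Figure D2:**
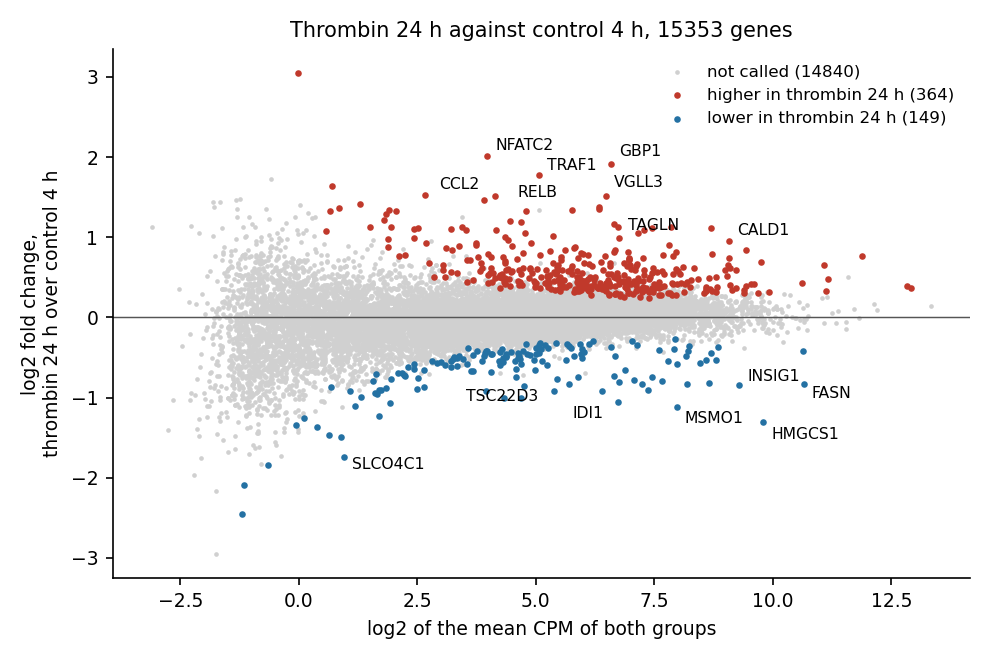
Each of the 15353 genes by its log2 mean CPM in both groups (horizontal axis) and its log2 fold change, thrombin 24 h over control 4 h (vertical axis). The 364 genes called higher and the 149 called lower are coloured; NFATC2, GBP1 and TRAF1 lead the labelled genes upwards, sterol genes such as HMGCS1 and MSMO1 lie below, and TAGLN and CALD1 are contractile genes.

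The called genes separated these groups from the rest of the study in different ways. Thrombin 24 h had the highest mean of the 6 groups for 304 of the 364 genes called higher (83.5%), and control 4 h the lowest for 164 (45.1%); both held for 109. Among the 149 genes called lower, thrombin 24 h was the lowest group for 119 (79.9%) and control 4 h the highest for 86 (57.7%), and both held for 60. A gene called between these groups is likely to have them at the ends, so the shares describe the calls and are not a test. Among the genes called higher, the group mean lay nearer to control 4 h than to thrombin 24 h for 77.5% in thrombin 4 h, 57.7% in thrombin 48 h, 72.8% in control 24 h and 62.6% in control 48 h. The shares for genes called lower were 67.8%, 63.8%, 71.8% and 59.7% in the same groups, and those for all genes 52.9%, 45.9%, 52.5% and 47.1%.

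**Figure D3:**
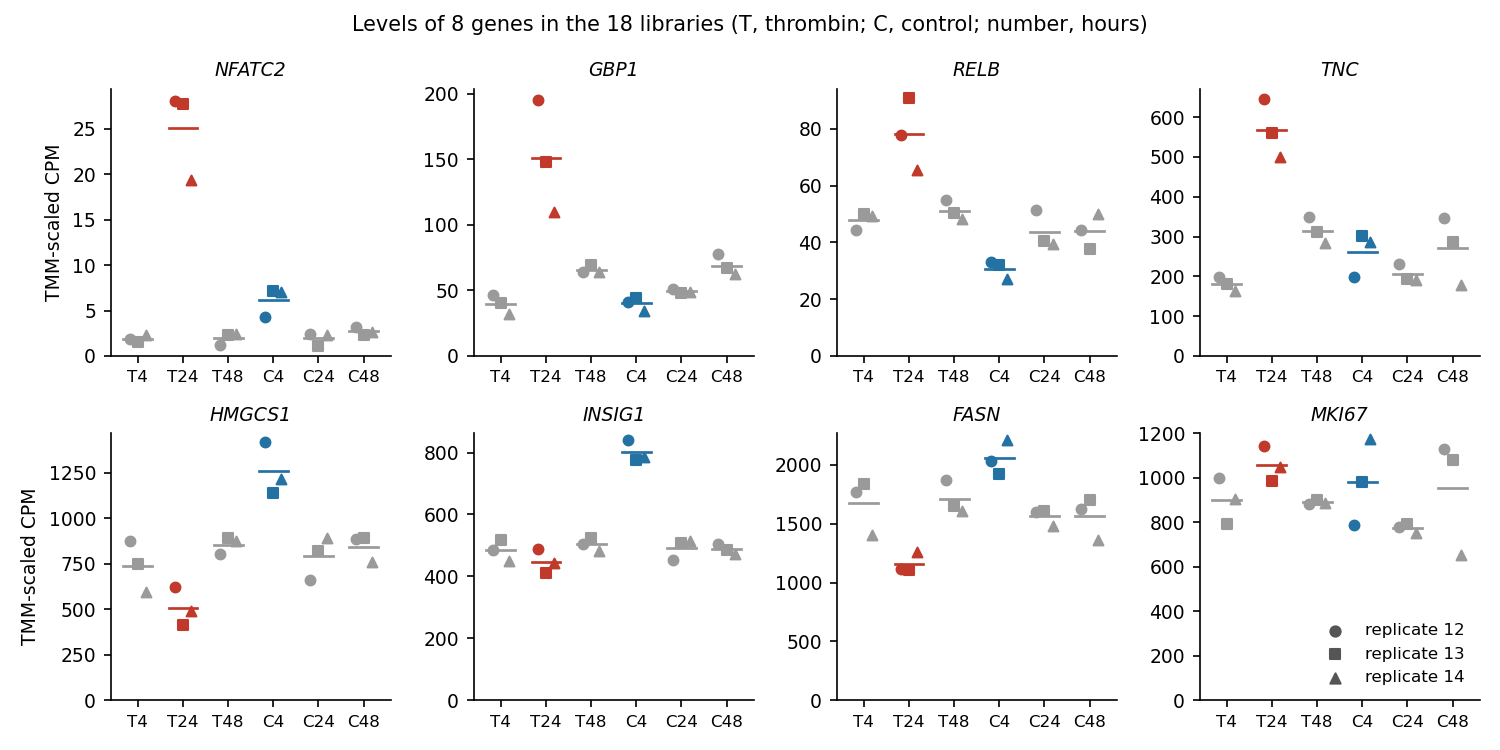
TMM-scaled CPM of 8 genes (vertical axes, from 0) in all 18 libraries by group (horizontal axis: T, thrombin; C, control; number, hours), with points for libraries and bars for group means. Thrombin 24 h (red) lies above control 4 h (blue) for NFATC2, GBP1, RELB and TNC, a matrix glycoprotein gene, and below it for HMGCS1, INSIG1 and FASN, while MKI67 overlaps.

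Genes of cholesterol synthesis and uptake were lower in thrombin 24 h than in control 4 h almost as a whole. Of the 25 tested, 21 fell and 0 rose, against 0.970% of all genes called lower, and the median log2 fold change was -0.651. HMGCS1, which encodes the HMG-CoA synthase at the head of the pathway and lies on chromosome 5 from 43287470 to 43313412, measured 624, 415 and 491 CPM in thrombin 24 h and 1418, 1140.3 and 1218 CPM in control 4 h. The highest thrombin 24 h library was below the lowest control 4 h library, and the difference on the log2 scale was -1.30 ± 0.15 (SE; edgeR adjusted p = 8.42e-06). INSIG1, the sterol-sensing brake on SREBP cleavage (chromosome 7, 155297878 to 155310235), had 489, 411 and 442 CPM in thrombin 24 h against 841, 777 and 784 CPM in control 4 h, and fell by 0.84 on the log2 scale (SE 0.08, edgeR adjusted p = 3.24e-07).

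The decrease ran along the length of the pathway. In the middle steps, IDI1, an isomerase that makes the second isoprene building block, changed by -1.05 ± 0.14 and the squalene synthase gene FDFT1 by -0.79 ± 0.09. In the later conversion of lanosterol, MSMO1, a methylsterol oxidase, had 189, 139 and 148 CPM in thrombin 24 h and 378, 331 and 321 CPM in control 4 h (-1.11 ± 0.12, edgeR adjusted p = 2.74e-06). NSDHL and HSD17B7, which act in the same removal of methyl groups, changed by -0.80 ± 0.09 and -1.01 ± 0.13. The pseudogene HSD17B7P2 was called lower too (-1.07 ± 0.20), but reads of HSD17B7 and its pseudogene could not be separated with certainty, and the call was lost without all libraries numbered 12. Members not called included PMVK, EBP and SREBF2, the gene of the SREBP factor for sterol genes. SREBF2 had 561, 558 and 483 CPM in thrombin 24 h and 547, 555 and 539 CPM in control 4 h, with a 95% interval of the log2 difference from -0.20 to 0.13. The sterol response element, searched as TCACNCCAC on both strands of the same RefSeq promoters, was in 1 of the 18 list members with a promoter, SREBF2, and in 1.09% of the 11609 tested genes with one. The letters were absent from these windows of the other members with a promoter. Only 18 of the 25 tested members could be searched. Variants of the letters and sites outside the windows were not looked for, so the search cannot show that such elements are lacking.

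Thrombin 24 h had the lowest mean of the 6 groups for 23 of the 25 cholesterol genes and control 4 h the highest for 13, and both held for 12. The log2 fold change of a gene between thrombin 24 h and control 4 h is the sum of its change between thrombin and control at 24 h and its change between control 24 h and control 4 h, and the genes divided this sum differently. For LSS, the lanosterol synthase gene, the thrombin part at 24 h was -0.63 and the control part 0.21. For INSIG1 the thrombin part was -0.14 and the control part -0.70, and for HMGCS1 the parts were -0.64 and -0.67. Of the 25 genes, 20 were called lower between thrombin and control at 24 h and 8 lower, with 1 higher, between control 24 h and control 4 h, where 8.54% and 7.15% of all genes were called lower. ABCA1, a cholesterol efflux pump gene that responds to sterols through LXR, was the only called gene of 9 efflux and LXR genes. Between thrombin 24 h and control 4 h 3.34% of all genes were called. ABCA1 rose, with 156, 133 and 147 CPM in thrombin 24 h and 49.1, 80.3 and 70.5 CPM in control 4 h (1.13 ± 0.18, edgeR adjusted p = 0.0011).

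Among 32 fatty acid and lipid droplet genes, 6 fell and 0 rose, against 0.970% and 2.37% of all genes, with a median log2 fold change of -0.081. The called genes were FASN, ACSS2, SCD, ELOVL6, LPIN1 and PNPLA3, the last lost in 5 of 12 alternatives. FASN, the fatty acid synthase gene, measured 1117, 1104 and 1258 CPM in thrombin 24 h and 2031, 1919.6 and 2214 CPM in control 4 h, with no overlap (-0.82 ± 0.10, edgeR adjusted p = 8.09e-06). ACSS2, which makes acetyl-CoA from acetate, had 58.5, 59.2 and 56.6 CPM in thrombin 24 h and 116, 101 and 114 CPM in control 4 h (-0.92 ± 0.09, edgeR adjusted p = 6.62e-07), and LPIN1, a phosphatidate phosphatase gene of triglyceride synthesis, changed by -0.83 ± 0.09. The lipid droplet coat gene PLIN2 (95% interval -0.36 to 0.44), the desaturase gene FADS1 (-0.27 to 0.09) and the fatty acid oxidation gene CPT1A (0.03 to 0.42) were not called. LIPG, which encodes the lipoprotein-cleaving endothelial lipase, was among the largest decreases by the naming rule, at 17.8, 16.4 and 17.6 CPM in thrombin 24 h and 33.1, 38.4 and 32.3 CPM in control 4 h (-1.0 ± 0.10, edgeR adjusted p = 5.05e-07).

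Genes of NF-kappa-B feedback and its targets were higher in thrombin 24 h. Of 21 tested, 11 rose and 0 fell, against 2.37% of all genes called higher, with a median log2 fold change of 0.58; the count ranged from 9 to 14 over 12 alternative settings. RELB, the NF-kappa-B subunit of the slower non-canonical branch (chromosome 19, 45001464 to 45038192), measured 77.9, 90.8 and 65.4 CPM in thrombin 24 h and 32.9, 32.0 and 27.0 CPM in control 4 h. The lowest thrombin 24 h library was far above the highest control 4 h library, and RELB rose by 1.34 ± 0.12 on the log2 scale (edgeR adjusted p = 3.24e-07). The subunit genes NFKB1 and NFKB2 rose by 0.68 ± 0.09 and 0.64 ± 0.10, while REL was not called (95% interval -0.30 to 0.31). For NFKB1 the thrombin part at 24 h was 0.58 and the control part 0.10, and for NFKB2 the parts were 0.06 and 0.58.

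A kappa-B site, the sequence that NF-kappa-B dimers bind, was looked for on both strands of the promoters in the RefSeq table of GRCh38.p14, from 250 bases before to 50 bases after the start. It was present in 8 of the 18 list members with a promoter there (44.4%) and in 775 of the 11609 tested genes with one (6.68%), which were 75.6% of all tested genes. Of the 8, NFKB1, BIRC3 and BCL3 rose. NFKB1 and BIRC3 carry the site before the start, and these stretches are shown because they are the called members in which the letters of the site can be read upstream of the gene. They are printed on the gene's strand with the site in capitals; the NFKB1 site lies 49 to 40 bases before the start, and the BIRC3 site, a match on the opposite strand, 199 to 190 bases before it, 1 of 2 upstream matches there. The list was made of NF-kappa-B feedback and target genes. A higher share of kappa-B sites can follow from that choice and is not a result of these libraries. A match is a description of the sequence, not evidence of binding.
NFKB1 chr4:102501285-102501344: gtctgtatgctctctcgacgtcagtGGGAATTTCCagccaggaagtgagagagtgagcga
BIRC3 chr11:102317260-102317319: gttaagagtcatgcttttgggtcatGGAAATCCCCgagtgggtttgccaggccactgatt

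BIRC3, the gene of a ubiquitin ligase that protects cells from death downstream of TNF receptors, measured 44.6, 38.2 and 28.6 CPM in thrombin 24 h and 14.7, 22.7 and 15.6 CPM in control 4 h (1.05 ± 0.17, edgeR adjusted p = 0.000706). TRAF1, an adaptor of the same receptors, had 63.5, 58.9 and 34.1 CPM in thrombin 24 h against 12.9, 21.2 and 10.5 CPM in control 4 h (1.78 ± 0.26, edgeR adjusted p = 0.000627); the call was lost in the fit of the 6 libraries and without all libraries numbered 12. TNFRSF9, a co-stimulatory TNF receptor gene that lies outside the list and was named for its size, had 30.3, 23.8 and 12.5 CPM in thrombin 24 h and 9.65, 8.03 and 6.26 CPM in control 4 h (1.46 ± 0.22). The thrombin 24 h groups of these genes were wide, with replicate 14 the lowest for BIRC3, TRAF1 and TNFRSF9. ICAM1, the leukocyte adhesion molecule gene, rose by 1.09 ± 0.16 (edgeR adjusted p = 9.24e-05), and TNFAIP2 by 0.91 ± 0.13 (edgeR adjusted p = 0.000176). The early feedback inhibitor genes NFKBIA (95% interval 0.11 to 0.57) and TNFAIP3 (0.24 to 0.92) were not called. Thrombin 24 h had the highest mean of the 6 groups for 12 of the 21 genes, and control 4 h the lowest for 14.

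**Figure D4:**
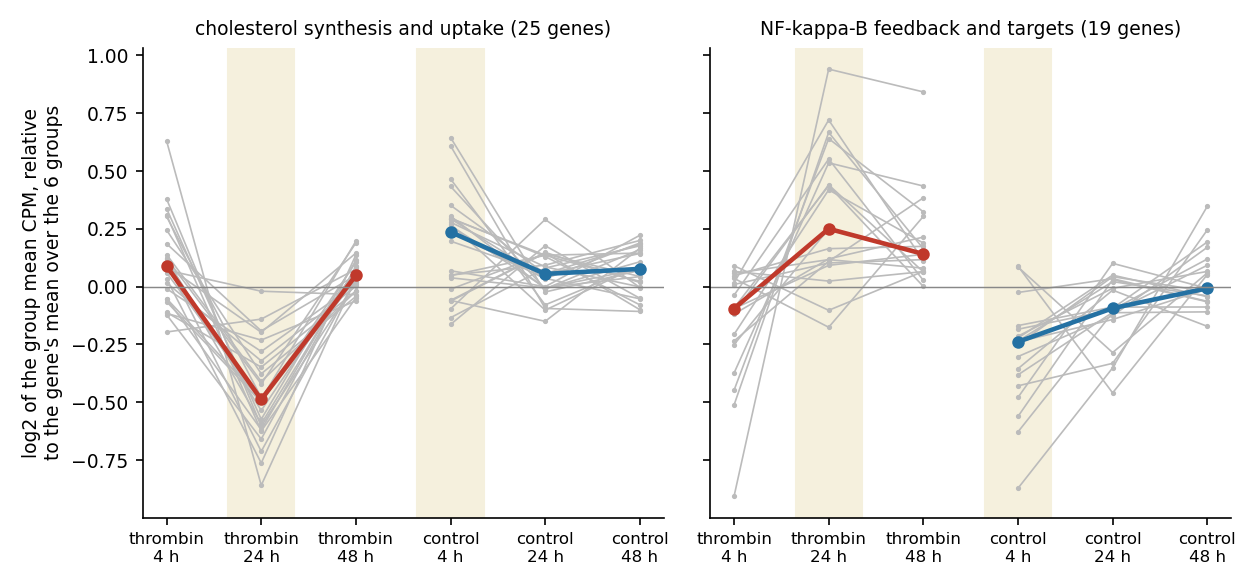
Group mean CPM of each gene on a log2 scale relative to its mean over the 6 groups (vertical axes) for 25 cholesterol genes and for the 19 NF-kappa-B genes averaging at least 2 CPM, by group (horizontal axis). Grey lines are genes and thick lines the medians; for cholesterol genes the median is -0.49 in thrombin 24 h and 0.24 in control 4 h, and for NF-kappa-B genes it is 0.25 in thrombin 24 h and -0.24 in control 4 h.

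Inflammatory messengers and interferon-linked genes followed in part. CCL2, the monocyte chemoattractant gene, measured 29.6, 29.0 and 20.2 CPM in thrombin 24 h and 8.35, 12.7 and 5.77 CPM in control 4 h, with no overlap (1.52 ± 0.21, edgeR adjusted p = 0.000106). CCL7, a related monocyte chemokine gene, was the only other chemokine called of 13 tested (1.13 ± 0.29), against 3.34% of all genes. The count of 2 was 1 without thrombin 24 h replicates 12 or 13 or control 4 h replicates 12 or 14 in turn. The neutrophil chemokine gene CXCL8 overlapped, with 26.0, 57.0 and 56.5 CPM in thrombin 24 h and 19.2, 63.2 and 35.0 CPM in control 4 h, and its interval (-0.62 to 1.10) was wide. IL6 was near 1 CPM in both groups and was not called. LIF, a cytokine gene of the IL-6 family and the only called member of 20 in that list (4 without control 4 h replicate 13, 0 in the fit of the 6 libraries), had 35.7, 48.5 and 35.9 CPM in thrombin 24 h and 10.6, 23.8 and 12.5 CPM in control 4 h (1.33 ± 0.22, edgeR adjusted p = 0.000805).

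Of 37 interferon-stimulated genes 4 rose and 0 fell, against 2.37% and 0.970% of all genes, with a median log2 fold change of 0.0679. GBP1, a guanylate-binding GTPase gene of cell-intrinsic defence (chromosome 1, 89052319 to 89065208), measured 195, 148 and 109.7 CPM in thrombin 24 h and 41.4, 44.3 and 34.2 CPM in control 4 h, and the lowest thrombin 24 h library was over the highest control 4 h library by more than the spread of the control libraries. It rose by 1.91 ± 0.16 on the log2 scale (edgeR adjusted p = 3.24e-07), and its means in the other groups lay between 39.5 CPM in thrombin 4 h and 69.0 CPM in control 48 h. GBP2 rose by 1.2 ± 0.18 (edgeR adjusted p = 0.000212), TAP1, a transporter of antigen peptides, by 0.68 ± 0.09, and IRF1, the interferon regulatory factor gene, by 0.43 ± 0.09. These genes divided the sum differently: for GBP1 the thrombin part at 24 h was 1.61 and the control part 0.30, while for TAP1 the control part was 0.68, equal to its whole change at 2 decimals. Classical members such as IFIT1 (-0.22 to 0.28) and ISG15 (-0.30 to 0.37) were not called.

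NFATC2, a transcription factor gene of the calcium and calcineurin pathway (chromosome 20, 51386963 to 51562839), had the largest increase by the naming rule. It measured 28.0, 27.7 and 19.4 CPM in thrombin 24 h and 4.26, 7.19 and 7.02 CPM in control 4 h, and 1.87, 2.00, 1.96 and 2.73 CPM on average in thrombin 4 h, thrombin 48 h, control 24 h and control 48 h. Control 4 h was thus above the 4 other groups and thrombin 24 h far above control 4 h (2.01 ± 0.21 on the log2 scale, edgeR adjusted p = 1.23e-06). TRPC4, a receptor-operated cation channel gene, had 12.0, 9.92 and 6.21 CPM in thrombin 24 h and 3.26, 2.82 and 3.76 CPM in control 4 h (1.52 ± 0.24, edgeR adjusted p = 0.000274). In this list of 24 genes 4 rose and 1 fell, against 2.37% and 0.970% of all genes, with a median of 0.0528. ATP2B4, a plasma membrane calcium pump gene, rose by 0.63 ± 0.12. The calcineurin subunit gene PPP3CA rose by 0.25 ± 0.07, a call lost in 10 of 12 alternatives. ORAI3, a store-operated calcium channel gene, fell by 0.64 (SE 0.12, edgeR adjusted p = 0.00127). RCAN1, a feedback inhibitor gene of calcineurin that NFAT induces, was not called, with an interval from -0.19 to 0.21.

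Of 13 thrombin receptor and thrombin-binding genes, 1 rose and 2 fell, against 2.37% and 0.970% of all genes. F2R, which encodes PAR1, the main thrombin receptor, measured 162, 157 and 140.3 CPM in thrombin 24 h and 169.6, 192 and 162 CPM in control 4 h; the highest thrombin 24 h library lay just below the lowest control 4 h library, and the gene was not called (interval -0.35 to -0.03). F2RL1, which encodes PAR2, a receptor for trypsin-like proteases, was low in both groups, with 2.42, 2.17 and 2.99 CPM in thrombin 24 h and 4.56, 5.91 and 3.34 CPM in control 4 h (-0.88 ± 0.24, edgeR adjusted p = 0.0385). SERPINE2, the gene of a thrombin inhibitor on the cell surface, had 80.9, 89.4 and 80.7 CPM in thrombin 24 h and 104, 119 and 102 CPM in control 4 h (-0.37 ± 0.10, edgeR adjusted p = 0.027). ARRB1, whose product arrests receptor signalling, rose by 0.33 ± 0.07. Its thrombin part at 24 h was -0.11 and its control part 0.45. For F2RL1 and SERPINE2 the thrombin parts were -1.52 and -0.91 and the control parts 0.64 and 0.54. The calls of F2RL1, SERPINE2 and ARRB1 were lost in 7, 5 and 1 of 12 alternatives, the fit of the 6 libraries among them. Thrombomodulin, THBD, overlapped (1.35, 2.72 and 4.46 CPM in thrombin 24 h, 1.18, 3.62 and 3.96 CPM in control 4 h).

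Among genes of coagulation and fibrinolysis, PLAT, which encodes the tissue plasminogen activator that starts clot lysis, overlapped, with 664, 941 and 992 CPM in thrombin 24 h and 666, 1086 and 1029.6 CPM in control 4 h (interval -0.39 to 0.19). Tissue factor, F3, had 128, 141 and 149.5 CPM in thrombin 24 h and 82.4, 108 and 113 CPM in control 4 h without overlap, but was not called (edgeR adjusted p = 0.0593); 5 of 12 alternatives called it higher, among them DESeq2 (adjusted p = 0.0166).

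Targets of YAP and TAZ included 8 that rose and 0 that fell of 24, against 2.37% and 0.970% of all genes, with a median log2 fold change of 0.323. The count called higher ranged from 6 to 13 over 12 alternative settings. It was 6 in the fit of the 6 libraries and without thrombin 24 h replicates 12 or 13 in turn. DESeq2 gave 13, and so did edgeR with no filter on low counts. CCN1, which encodes a matricellular integrin ligand, measured 662, 713 and 651 CPM in thrombin 24 h and 382, 428 and 399 CPM in control 4 h (0.74 ± 0.09, edgeR adjusted p = 9.22e-06). ANKRD1, a nuclear and sarcomeric ankyrin repeat protein gene, had 44.9, 34.9 and 37.3 CPM in thrombin 24 h and 18.7, 22.8 and 19.7 CPM in control 4 h (0.93 ± 0.19); the call was lost without all libraries numbered 12. CRIM1, RBMS3 and ARHGEF17, a RhoA exchange factor gene, rose by 0.59 ± 0.11, 0.84 ± 0.12 and 0.56 ± 0.10. Their thrombin parts at 24 h were 1.10, 1.54 and 0.16, and their control parts -0.52, -0.70 and 0.40. The other members called were AJUBA, AMOTL2 and MYOF, whose calls were lost in 5, 7 and 4 of 12 alternatives. CCN2, the connective tissue growth factor gene, had 141, 184 and 175 CPM in thrombin 24 h and 112, 152 and 124 CPM in control 4 h; the groups overlapped and it was not called (edgeR adjusted p = 0.122), though 4 of 12 alternatives called it higher. VGLL3, which encodes a cofactor of the TEAD factors that YAP also binds, lay outside the list and was named for its size, at 158, 131 and 107 CPM in thrombin 24 h and 36.4, 55.8 and 45.8 CPM in control 4 h (1.52 ± 0.15, edgeR adjusted p = 2.55e-06). ABLIM1, an actin-binding LIM protein gene named in the same way, had 147, 104 and 99.5 CPM in thrombin 24 h and 43.5, 46.6 and 47.2 CPM in control 4 h (1.35 ± 0.16).

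Growth factor ligands were called higher in 7 of 21 and lower in 0, against 2.37% and 0.970% of all genes (median 0.243). The 7 were EGF, HBEGF, FGF1, FGF2, PDGFA, PDGFB and VEGFA. Basic fibroblast growth factor, FGF2, had 136, 141 and 109 CPM in thrombin 24 h and 62.7, 78.4 and 78.2 CPM in control 4 h (0.81 ± 0.10, edgeR adjusted p = 1.26e-05). PDGFB, which encodes a potent stellate cell mitogen, had 32.9, 29.6 and 22.5 CPM in thrombin 24 h and 16.5, 14.5 and 12.3 CPM in control 4 h (0.96 ± 0.14, edgeR adjusted p = 6.64e-05). EGF was low, at 3.63, 2.24 and 1.86 CPM in thrombin 24 h and 0.948, 0.882 and 1.18 CPM in control 4 h, and its call was lost in 3 of 12 alternatives, and that of HBEGF in 5. Without thrombin 24 h replicate 13, 4 of the 7 ligands were called. Among 22 growth factor receptors only IGF1R and the neuropilin gene NRP2 were called, against 3.34% of all genes, and both rose. IGF1R measured 157, 152 and 109 CPM in thrombin 24 h and 58.3, 66.8 and 61.1 CPM in control 4 h (1.16 ± 0.14, edgeR adjusted p = 1.38e-05).

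Of 25 genes of the TGF-beta and SMAD response, 5 rose and 0 fell, against 2.37% and 0.970% of all genes (median 0.207), among them GREM1, SMAD7, SKIL and PMEPA1. Leaving out thrombin 24 h replicate 13 or control 4 h replicate 12 left 3 calls, and 8 were called with no filter on low counts. SMAD7, an inhibitory SMAD gene of the pathway's own feedback, had 30.1, 35.0 and 26.9 CPM in thrombin 24 h and 20.6, 22.5 and 19.6 CPM in control 4 h (0.55 ± 0.11, edgeR adjusted p = 0.00238). GREM1, the gremlin gene of a BMP antagonist, had 856, 943 and 844 CPM in thrombin 24 h and 383, 599.6 and 498 CPM in control 4 h (0.84 ± 0.17, edgeR adjusted p = 0.00873), a call lost in 2 of 12 alternatives. The fibrillar collagen genes of scar matrix were not called. COL1A1 measured 2620.3, 2724 and 2804 CPM in thrombin 24 h and 2772, 2549 and 2412 CPM in control 4 h (interval -0.13 to 0.28), and COL1A2 and COL3A1 had intervals from -0.21 to 0.57 and from -0.69 to 0.41. Of 22 collagen chains, the basement membrane gene COL4A1 (0.72 ± 0.18) and the anchoring fibril gene COL7A1 (0.75 ± 0.10) rose and COL4A5 fell by 0.34 (SE 0.08), with the calls of COL4A1 and COL4A5 lost in 4 and 5 of 12 alternatives.

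Adhesive glycoproteins and their receptors changed in a minority. Of 25 matricellular and adhesive genes 4 rose and 0 fell, against 2.37% and 0.970% of all genes. THBS1, the thrombospondin gene whose product activates latent TGF-beta, had 663, 669 and 627 CPM in thrombin 24 h and 345, 488 and 413 CPM in control 4 h (0.65 ± 0.12, edgeR adjusted p = 0.000975). TNC, which encodes the injury matrix protein tenascin C, had 646, 559.5 and 499 CPM in thrombin 24 h and 199, 301 and 286 CPM in control 4 h (1.12 ± 0.20, edgeR adjusted p = 0.00344). The basement membrane gene NID2 rose by 0.59 ± 0.11. Reelin, RELN, a secreted glycoprotein also used as a stellate cell marker, had 11.4, 12.0 and 14.6 CPM in thrombin 24 h and 2.72, 8.25 and 6.54 CPM in control 4 h; it was called (1.10 ± 0.28, edgeR adjusted p = 0.0298), but the call was lost in 7 of 12 alternatives, and the change was 0.77 without control 4 h replicate 12. Of 16 integrins 4 rose and 0 fell, against the same shares of all genes. ITGA5, the fibronectin receptor subunit, rose by 0.61 ± 0.10 (edgeR adjusted p = 0.000362), ITGAV by 0.60 ± 0.14, ITGB8 by 0.58 ± 0.12 and ITGA7 by 0.34 ± 0.09. Without control 4 h replicate 12, 2 integrins were called higher and 2 lower.

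Of 27 immediate early genes 5 rose and 1 fell, against 2.37% and 0.970% of all genes (median 0.0904). FOSB, an AP-1 subunit gene, was low, at 4.98, 6.05 and 5.13 CPM in thrombin 24 h and 1.95, 1.99 and 2.5 CPM in control 4 h (1.34 ± 0.24, edgeR adjusted p = 0.000925). The orphan nuclear receptor gene NR4A1 had 16.7, 19.9 and 15.2 CPM in thrombin 24 h and 10.1, 8.52 and 9.11 CPM in control 4 h (0.90 ± 0.13, edgeR adjusted p = 8.7e-05). FOSL2, KLF5 and KLF10, all genes of transcription factors, rose by 0.55 ± 0.10, 0.68 ± 0.13 and 0.50 ± 0.10. KLF2, a factor known for quieting inflammation in endothelium, was the one that fell, with 96.8, 145 and 155 CPM in thrombin 24 h and 209.8, 229 and 223 CPM in control 4 h (-0.74 ± 0.13, edgeR adjusted p = 0.000985). The thrombin part at 24 h and the control part were -0.17 and -0.57 for KLF2 and 0.21 and 0.69 for NR4A1. For FOSB, FOSL2 and KLF5 the thrombin parts were 1.43, 0.58 and 0.96 and the control parts -0.09, -0.04 and -0.28. EGR1 was spread widely in both groups, with 45.9, 46.3 and 19.6 CPM in thrombin 24 h and 70.3, 24.6 and 18.2 CPM in control 4 h. MYC was not called (edgeR adjusted p = 0.0812; interval 0.09 to 0.42).

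TSC22D3, the glucocorticoid-induced leucine zipper gene, measured 28.7, 27.1 and 30.4 CPM in thrombin 24 h and 56.9, 54.2 and 51.8 CPM in control 4 h (-0.92 ± 0.09, edgeR adjusted p = 3.24e-07). It was the only called gene of 16 glucocorticoid receptor targets. Of 23 clock genes, CRY1, a repressor of the circadian clock, was the 1 called (0.45 ± 0.09), a share close to the 3.34% of all genes. The intervals of the clock genes PER1, PER2 and PER3 were -0.39 to 0.03, -0.21 to 0.28 and -0.36 to 0.01, and NR1D1 and DBP were not called either. The endothelin gene EDN1 and the natriuretic peptide gene NPPB were the called members of 11 in their list. EDN1, whose product makes stellate cells contract, had 8.07, 8.49 and 7.05 CPM in thrombin 24 h and 3.91, 3.49 and 3.48 CPM in control 4 h (1.12 ± 0.18, edgeR adjusted p = 0.000319). NPPB had 5.58, 5.50 and 6.54 CPM in thrombin 24 h and 2.37, 1.99 and 2.78 CPM in control 4 h (1.32 ± 0.25).

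**Figure D5:**
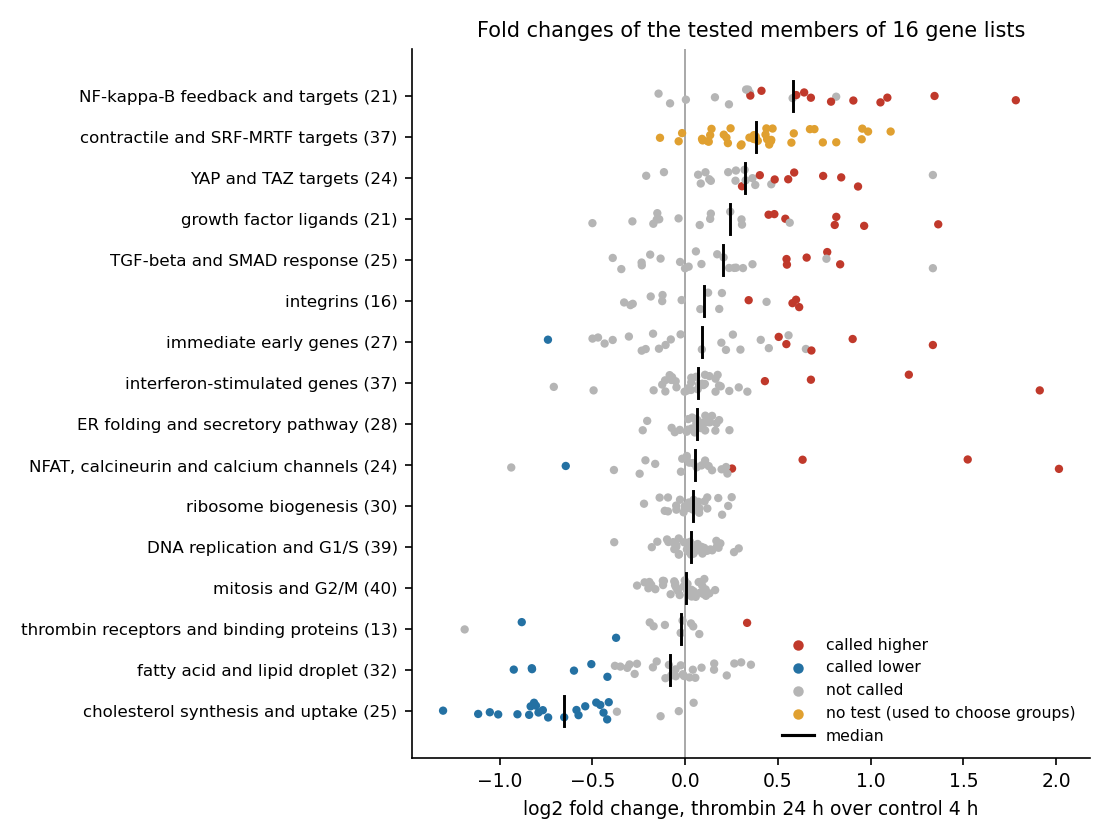
Log2 fold change, thrombin 24 h over control 4 h (horizontal axis), of the tested members of 16 gene lists (vertical axis, number of genes in brackets), with called members coloured and a bar at the median; contractile genes, which chose the groups, carry no call. Cholesterol genes have the lowest median (-0.651) and NF-kappa-B genes the highest (0.58), and the mitosis list is at 0.00636.

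No gene of 4 growth and housekeeping lists was called between thrombin 24 h and control 4 h, where 3.34% of all genes were. At that share, lists of this size would hold few calls. Over all genes, 2350 of 15353 had an unadjusted p under 0.05. Of 40 mitosis genes edgeR called 0, with 4 at an unadjusted p under 0.05 and 0 called by DESeq2, and their log2 fold changes lay between -0.259 and 0.162. MKI67, a marker of cycling cells, had 1142, 988 and 1049 CPM in thrombin 24 h and 789, 981 and 1175 CPM in control 4 h, with control 4 h replicate 12 the lowest of the 6 libraries. Among 39 genes of DNA replication and its onset edgeR and DESeq2 called 0, with 5 at an unadjusted p under 0.05. Of 30 ribosome biogenesis genes edgeR and DESeq2 again called 0, with 2 at an unadjusted p under 0.05. ER folding and secretion, with 28 genes, gave 0 calls by edgeR and by DESeq2 and 2 at that unadjusted p. CDKN1A, the cell cycle inhibitor gene p21, was nonetheless lower, with 50.4, 62.7 and 49.6 CPM in thrombin 24 h and 65.2, 77.1 and 71.8 CPM in control 4 h (-0.40 ± 0.11, edgeR adjusted p = 0.0313), a call lost in 5 of 12 alternatives.

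Some genes with a high level in both groups overlapped between them. KRTAP2-3, a hair keratin-associated gene whose level is uncertain because of a near-identical copy, measured 12.8, 21.4 and 30.1 CPM in thrombin 24 h and 12.4, 24.5 and 27.5 CPM in control 4 h, while the means of the other groups were between 0.925 CPM in control 24 h and 3.78 CPM in control 48 h. In both groups replicate 12 was the lowest and replicate 14 the highest. KRT81, a hair keratin gene, averaged 35.9 ± 6.84 CPM in thrombin 24 h and 36.5 ± 1.79 CPM in control 4 h (SD, n = 3 each), and the other groups averaged between 7.67 CPM in control 24 h and 17.5 CPM in control 48 h. Of the 14 genes in that list edgeR called 0, with 5 at an unadjusted p under 0.05 and 1 called by DESeq2. PPL, the periplakin gene, was low in both, at 13.7 ± 3.29 CPM in thrombin 24 h and 17.5 ± 6.81 CPM in control 4 h, against 37.9 CPM or more in the other groups (interval of the difference -0.94 to 0.21). The Hedgehog factor gene GLI1 (0.03 to 0.67) and the glucose-regulated TXNIP (-0.36 to 0.07) were not called.

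By the naming rule the remaining large increases included GLIPR1 and SDC4P. GLIPR1, a gene first described in glioma, had 125, 123 and 100.2 CPM in thrombin 24 h and 34.9, 52.9 and 45.6 CPM in control 4 h (1.38 ± 0.15, edgeR adjusted p = 3.83e-06). SDC4P is a pseudogene of syndecan 4, and its reads could not be told from those of its parent with certainty. The remaining large decreases were all of low genes: SLCO4C1, an organic anion transporter gene (1.68, 0.612 and 0.395 CPM in thrombin 24 h, 3.73, 2.29 and 2.85 CPM in control 4 h), C10orf143, the phosphatase gene PTPN22, the small nucleolar RNA SNORD159, the kinase gene CDKL3 and ZMAT1. The highest thrombin 24 h mean among these 6 was 1.95 CPM, for SNORD159. The calls of CDKL3 and ZMAT1 were lost in 6 of 12 alternatives each, and that of PTPN22 in 4.

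Some markers of the labelled cell type were present in both groups, while LRAT, CYGB and TCF21, markers of stellate cells, did not pass the filter on low counts. COL1A1 is given above; the vimentin gene VIM averaged 3609 ± 425 CPM in thrombin 24 h and 3641 ± 139 CPM in control 4 h (SD, n = 3 each). Of 23 stellate and myofibroblast genes, RELN was the only one called outside the contractile list, against 3.34% of all genes. Hepatocyte markers summed to between 6.94 and 9.24 CPM over 15 genes in thrombin 24 h libraries and between 8.43 and 9.48 CPM in control 4 h libraries, with APOC3, TTR, FGA, FGG and CYP3A4 at 0 in all 6. Macrophage markers summed to between 83.0 and 99.7 CPM over 13 genes in thrombin 24 h and between 80.8 and 104 CPM in control 4 h, with CD163, C1QA, C1QB, AIF1, VSIG4 and TYROBP at 0. Cholangiocyte and epithelial markers summed to between 369 and 526 CPM over 10 genes in thrombin 24 h and between 436 and 544 CPM in control 4 h, with CFTR at 0. Endothelial markers, with CLEC4G and LYVE1 at 0, summed to between 50.3 and 64.9 CPM in thrombin 24 h and between 59.2 and 69.5 CPM in control 4 h. Of the endothelial markers only VWF, the von Willebrand factor gene, was called, at 11.0, 9.85 and 11.3 CPM in thrombin 24 h and 20.4, 16.8 and 23.7 CPM in control 4 h (-0.91 ± 0.15, edgeR adjusted p = 0.000377). Histone genes of DNA replication, most transcripts of which carry no poly(A) tail, gave 0 called higher and 2 lower of 21 (median -0.23). Over all genes the shares were 2.37% and 0.970%. The count of 2 lower was 0 in the fit of the 6 libraries and without control 4 h replicates 12 or 13 in turn.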

How the data were processed

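Total RNA of LX-2 cells was enriched for poly(A) and sequenced, per the labels' protocols. The authors deposited 1 table of raw read counts for 28278 gene symbols in 18 libraries. The tools named, per the submitters' processing notes, were DESeq2, SAMtools 1.21, Bowtie2 2.5.4 and cutadapt 4.9, and the builds GRCh38 and hg38; the counter, the annotation, the strand setting and the step each tool served are not given in the sources used here. Every column matched a library title. Of the symbols, 4439 had no count in any library, and 26998 (95.5%) were found in the RefSeq table of GRCh38.p14, the source of positions and promoters. Pseudogenes and near-identical copies may share reads with their parents.

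Counts of all 18 libraries (14431044 to 23270601 in total) were fitted with edgeR 4.0.16 (R 4.3.3, limma 3.58.1), with filterByExpr (minimum count 10, total 15), TMM scaling, a mean per group and the quasi-likelihood test on 12 residual degrees of freedom. Benjamini-Hochberg adjustment ran over 15353 genes with a threshold of 0.05. Intervals are 95% intervals of log2 fold changes, and the common biological coefficient of variation was 9.07%. No 2 replicates were alike within counting noise (chi-square per degree of freedom 3.06 to 19.3). On simulated counts of 15353 genes with 200 changed, the test of thrombin 24 h against control 4 h recovered 76.1% of 1.5-fold, 89.6% of 2-fold and 95.5% of 4-fold changes, with 4.92% of calls false.

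Genes were named as the 12 largest called changes in each direction without overlap and with at least 2 CPM in the higher group, up to 5 members of each list with at least 20% of members called, and a set of anchors given whatever their result. Values of some genes that met these rules are not reported here. Other members named from lists, and genes high or low in both groups, were named after their values were seen. The groups, the 51 gene lists (1204 of 1216 entries in the table) and the anchors were chosen with earlier results of these data known. Alternatives were RLE size factors, DESeq2 1.42.0, no filter on low counts, the 6 libraries alone, the replicate number as a block, leaving out each replicate, and leaving out all libraries numbered 12.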

Additional observations from a re-analysis of the deposited data

How the results depend on the processing

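No call among the 87 genes named by the rule in the methods changed direction under any of 12 alternatives; 22 lost the call in at least 1, and 3 gained one in at least 1. The count of genes called higher was 227 in the fit of the 6 libraries alone and 230 to 398 with 1 replicate left out. The count called lower was 268 with no filter on low counts, 74 in the 6-library fit and 94 to 148 with 1 replicate left out. At least 2-fold, 26 genes were higher and 8 lower without all libraries numbered 12, 35 were lower with no filter, and leaving out 1 replicate gave 8 (thrombin 24 h replicate 13) to 30 lower (thrombin 24 h replicate 14). With 1 replicate left out, 3 to 7 TGF-beta genes, 4 to 7 growth factor ligands and 2 to 3 integrins were called higher; with no filter, 8 TGF-beta genes were. DESeq2 called 13 YAP and TAZ targets, and so did edgeR with no filter. The fit of the 6 libraries called 6 of these targets higher, and leaving out 1 replicate gave 6 to 10. Fewer libraries leave fewer degrees of freedom; otherwise the cause was not tested. The list counts and the calls of other list members under these settings were chosen after seeing the data. DESeq2 called 725 of 13567 genes (5.34%), 502 of them among the 513 of edgeR. Fewer of the 513 calls were kept where libraries were left out. The fit of the 6 libraries kept 296 (57.7%), and the fit without all libraries numbered 12 kept 287 (55.9%). With 1 replicate left out, 311 (60.6%, thrombin 24 h replicate 13) to 425 (82.8%, thrombin 24 h replicate 14) were kept.

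Over all genes, deviations of libraries with the same replicate number were nearly uncorrelated between the groups (correlations 0.016, -0.026 and 0.076). A correlation over all genes can miss an effect shared by some genes. COL3A1, for instance, ran from replicate 12 down to 14 in both groups. It had 266, 217 and 158 CPM in thrombin 24 h and 319, 206 and 181 CPM in control 4 h. Whether the numbers mark paired libraries was not tested. With the replicate block 397 genes were called higher and 172 lower, 501 of them shared with the 513.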

Other observations

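The list counts of this section stand beside 2.37% of all genes called higher and 0.970% called lower. SLC2A1, the gene of the basal glucose transporter, measured 81.7, 90.3 and 84.0 CPM in thrombin 24 h and 116, 123 and 117 CPM in control 4 h, with no overlap (-0.48 ± 0.08, edgeR adjusted p = 0.000546). In its list of 32 glycolysis and hypoxia genes 2 rose and 2 fell, the others being PFKP (0.31 ± 0.08) and VEGFA (0.54 ± 0.12), which rose, and ALDOC (-0.36 ± 0.09), which fell; these calls were lost in 3, 2 and 3 of 12 alternatives, and the 2 increases without thrombin 24 h replicate 13 or control 4 h replicate 12. The amino acid transporter genes SLC7A1 (0.50 ± 0.12) and SLC7A5 (0.53 ± 0.13) were the called members of 27 ATF4 response genes, and both rose; the count of 2 was 0 in the fit of the 6 libraries, without thrombin 24 h replicate 13 and without control 4 h replicate 12. Of 24 NRF2 targets TXNRD1 rose (0.33 ± 0.08) and AKR1C1 fell (-0.67 ± 0.16); AKR1C1, whose reads may be shared with close paralogs, was also the only called gene of 14 in the prostaglandin list, and the calls were lost in 5 and 3 of 12 alternatives. RXRA, a partner of retinoid and sterol-sensing receptors, rose (0.33 ± 0.08) as the only called gene of 16 retinoid genes, a call lost in 5 of 12 alternatives.

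TIMP3, a metalloproteinase inhibitor gene, had 613, 637 and 600.0 CPM in thrombin 24 h and 416, 474 and 409 CPM in control 4 h (0.51 ± 0.08, edgeR adjusted p = 0.000322), and MMP9, a gelatinase gene, rose by 0.75 ± 0.19, while MMP17, a membrane-bound protease gene, fell (-0.38 ± 0.10); these were the called genes of 26, and the calls of MMP9 and MMP17 were lost in 4 and 5 of 12 alternatives. The collagen hydroxylase genes P4HA2 (0.33 ± 0.07) and P3H2 (0.55 ± 0.14) were the called members of 19, lost in 1 and 6 alternatives. The death receptor gene TNFRSF10B rose (0.46 ± 0.09) and EDA2R fell (-0.62 ± 0.17), along with CDKN1A, among 27 p53 targets; the call of EDA2R was lost in 8 alternatives. CD55, which protects cells from complement, and C5 fell (-0.59 ± 0.14 and -0.47 ± 0.13) of 15 complement genes, and their calls were lost in 2 and 6 alternatives, both of them without thrombin 24 h replicate 13 and without control 4 h replicate 14. FOXO1 (0.50 ± 0.14) was the called member of 22 serum-withdrawal genes, EPHA5 (0.89 ± 0.17) of 26 guidance genes, HES1 (0.87 ± 0.20) of 22 Wnt and Notch genes and LIF of 20 genes of ERK feedback; all rose. The call of FOXO1 was lost in 9 of 12 alternatives, that of HES1 in 3 (without thrombin 24 h replicates 12 or 13 or control 4 h replicate 14 in turn) and that of LIF in the fit of the 6 libraries. edgeR called 0 genes of the lists of lysosome (30 genes, 3 at an unadjusted p under 0.05, 1 by DESeq2), RGS proteins (16, 4 and 0), hyaluronan (12, 3 and 0), IGF binding proteins (10, 1 and 0), Hedgehog (11, 2 and 1) and cholangiocyte and epithelial markers (6, 2 and 0). Over all genes edgeR called 3.34%, and 2350 of 15353 had an unadjusted p under 0.05. In lists of this size, 0 calls or 1 call is close to that called share.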
